A study of Homo sapiens with 2 samples.

Results

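The expressed genes of the long arm of chromosome 7, from 7q22 to 7q32, are described here in CARM1 WT and CARM1 KO cells. They were found by position. Of the 127 protein-coding genes of the deposited count table that lie within chr7:102105403-128695227 (hg19, GRCh37), 12 were left out by the rule, 44 had fewer than 50 reads in both libraries together, and the 71 others are the members. The table holds 57736 identifiers, of which 12522 are protein-coding genes with at least 50 reads. The segment was chosen with the results of this same pair of libraries known, so the direction of the members is a description and was not tested.

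RNA-Seq was performed on A1847, a human ovarian cancer cell line with a high level of CARM1, an arginine methyltransferase that acts on histones and other nuclear proteins. The CARM1 WT library comes from parental A1847 cells. The CARM1 KO library comes from 1 clone of A1847 cells in which CARM1 was edited with a guide RNA delivered in the lentiCRISPR v2 vector. Both were grown in RPMI 1640 with fetal bovine serum, and no drug treatment is given for either. There was 1 library per group, so no difference below has a replicate check, and what belongs to the loss of CARM1 cannot be told apart from what belongs to the clone or the library.

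The libraries held 30741953 reads (WT) and 32300391 reads (KO). CARM1 itself had 975 reads in WT and 380 in KO cells, which was 2.63-fold lower (95% counting interval 2.33 to 2.97); reads of an edited gene can remain. Of 12 markers of ovarian carcinoma epithelium, 6 had at least 50 reads in WT and 7 in KO cells. Their summed reads were 43990 and 151496, with the largest counts for KRT18 (21154 and 51223 reads) and KRT8 (17600 and 70370 reads), whereas MUC16, CLDN3, CLDN4 and WT1 were at or below 10 reads in both. KRT19 went against the direction of the sum, with 45 reads in WT and 0 in KO cells. The 4 fibroblast markers summed to 14542 reads in WT and 540 in KO cells. Most of the WT reads were in PDGFRA (14326 and 2 reads) and most of the KO reads in COL1A1, which was higher (131 and 537 reads). The 3 immune markers summed to 91 and 172 reads. Of these, CD74 was higher (68 and 158 reads), whereas PTPRC (6 and 0) and LYZ (17 and 14) were lower. The 2 endothelial markers found in the table summed to 1 and 2. The part of these marker differences in the results below was not tested. Both libraries come from cultures of the A1847 line, so these markers describe transcripts of that line and do not count cells of other types. Whether fewer cells carry a transcript or each cell carries less cannot be told from a bulk library.

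Genes that are neighbours on a chromosome share no function as a rule, and most are transcribed from promoters of their own. The 7q22 to 7q32 segment holds housekeeping genes of many kinds, such as subunits of the proteasome, of RNA polymerase II, of the mitochondrial processing peptidase and of respiratory complex I. It also holds the caveolin genes CAV1 and CAV2. Their proteins build caveolae, small pits of the plasma membrane that depend on cavin proteins encoded elsewhere.

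Most members were lower in CARM1 KO cells, 36 of the 71 by between 1.5-fold and 3-fold. A fold is the ratio of reads after TMM scaling of the libraries, with an exact 95% interval that covers counting error only. Log2 fold changes (KO over WT) carry a prior count of 2, which pulls genes with few reads towards 0. Counts of genes past a fold threshold use these log2 fold changes, not the plain ratios. The median log2 fold change of the 71 members was -0.97, with quartiles of -1.35 and -0.34, beside 0.03 over all 12522 expressed protein-coding genes and 0.07 over the 499 other expressed genes of chromosome 7. There were 55 members below 0 and 16 above.

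At a threshold of 1.5-fold, 49 members were lower in KO cells, where the share of all genes called lower was 23.2%, and 13 were higher, where that share was 27.4%. At a threshold of 3-fold, 13 members were lower (7.29% of all genes) and 5 were higher (10.9% of all genes). The study used the same fold together with a limit on FDR, which was not applied here. The band between 1.5-fold and 3-fold lower held 36 members, against 15.9% of all genes. The remaining 9 members differed by less than 1.5-fold. Since the segment was chosen on this contrast, these counts describe it and support nothing further.

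**Figure D1:**
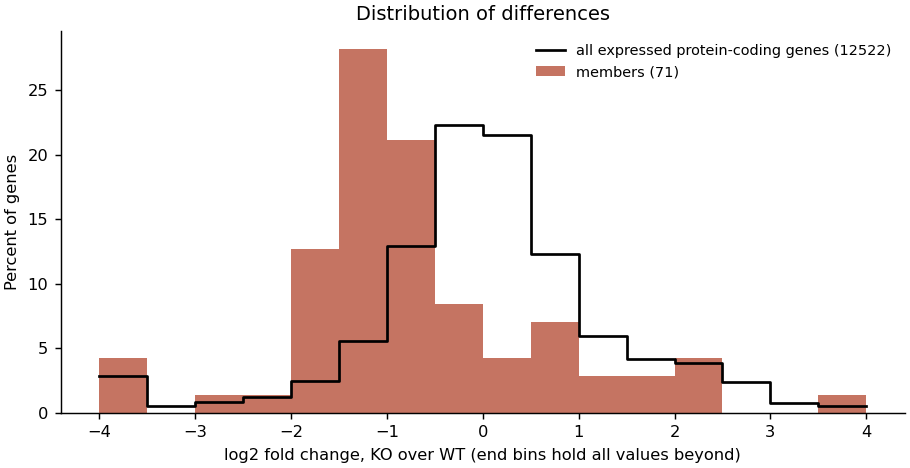
Percent of genes (vertical axis) in each bin of log2 fold change, KO over WT (horizontal axis, with the end bins holding all values beyond), for the 71 members as bars and for the 12522 expressed protein-coding genes as a line. The tallest bar of the members lies between -1.5 and -1 and holds 28.2% of them, whereas the line peaks between -0.5 and 0 with 22.3% of all genes.

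The lower level was seen at each depth of reads. The median was -1.17 over the 17 members with 50 to 499 reads, -1.04 over the 27 with 500 to 1999 reads, and -0.77 over the 27 with at least 2000 reads. The medians of all protein-coding genes in those classes were 0.21, -0.01 and 0.00 respectively. The well-measured members were thus lower too, though by less than those with few reads.

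The shift was then followed along chromosome 7, using every expressed protein-coding gene in order of its start except the 12 left out. A fit of 2 steps that minimised absolute deviations placed the first edge between IFT22 and COL26A1 and the last between HILPDA and METTL2B, that is, from chr7:101006156 to chr7:128098472. The median log2 fold change was 0.05 over the 378 genes before this stretch, -1.08 over the 69 genes within it and 0.19 over the 123 genes after it. Fits of 3 and 4 steps kept both edges. With squared in place of absolute deviations, 2 steps marked a different stretch of 10 genes, from MAGI2 to SEMA3D, with a median of -2.95, and 4 steps also marked a stretch from VGF to METTL2B, with a median of -1.04. Of the 71 members, 64 lay between the edges and 7 lay past the distal one.

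**Figure D2:**
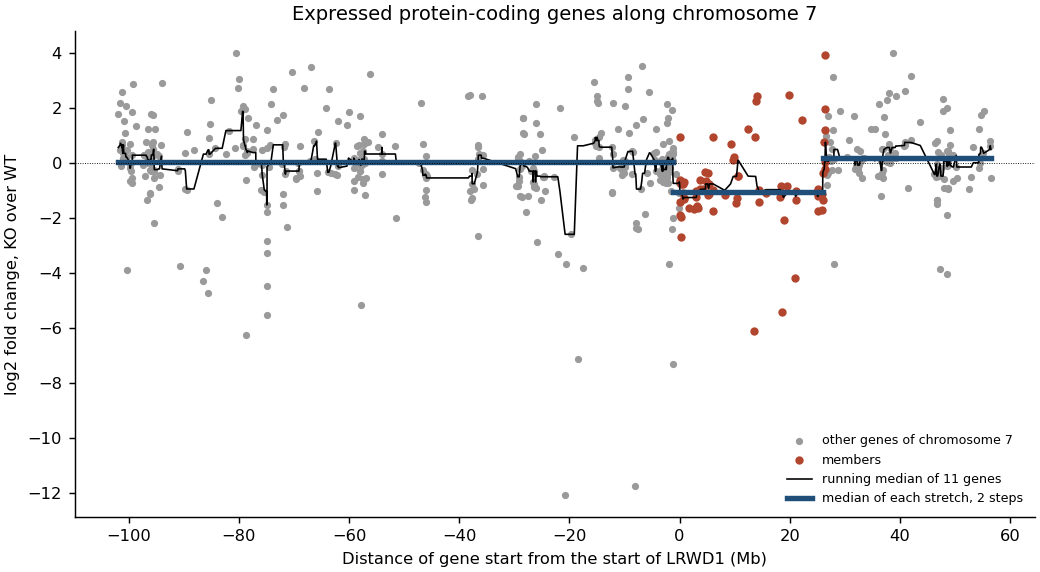
Log2 fold change, KO over WT (vertical axis), of expressed protein-coding genes of chromosome 7 against the distance of their start from that of LRWD1, the first member, in Mb (horizontal axis). Members are red points, other genes grey points, the thin line is a running median of 11 genes and the thick lines are the medians of the 3 stretches (0.05, -1.08 and 0.19).

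The proximal edge rested on 1 gene. Before it, FIS1, a mitochondrial fission protein, had 606 reads in WT and 827 in KO cells, and IFT22, a protein of intraflagellar transport, had 787 and 1002. CLDN15, a tight junction claudin, stood apart from them with 57 and 13 reads. Across the edge, the collagen gene COL26A1 had 463 reads in WT and 1 in KO cells (a ratio of 474 with a counting interval of 84.7 to 18764), far below its near neighbours. CUX1, a homeodomain transcription factor, had 1247 and 969 reads, only 1.32-fold lower (1.21 to 1.43). When COL26A1 was left out, the edge moved past CUX1 to PRKRIP1 at chr7:102004319, and the distal edge did not move. From there on the genes were lower: PRKRIP1 had 710 and 433 reads, and ORAI2, a store-operated calcium channel, had 715 and 236. All 5 genes between the edge and the first member were below 0, with a median of -1.09.

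The distal edge was crossed within a few neighbouring genes. IMPDH1, the enzyme that commits purine synthesis to guanine nucleotides, had 1025 reads in WT and 321 in KO cells (3.27-fold lower, 2.88 to 3.72). HILPDA, a lipid droplet protein, had 280 and 111 reads (2.58-fold lower, 2.07 to 3.25). METTL2B, a tRNA methyltransferase and the next gene, had 1674 and 1340 reads, only 1.28-fold lower (1.19 to 1.38). The difference therefore shrank from about the median of the stretch to less than 1.5-fold between HILPDA and METTL2B. Past METTL2B, the long non-coding RNA LINC03072 was again lower with 671 and 335 reads (2.05-fold, 1.80 to 2.35), and CALU, the next member, was higher.

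**Figure D3:**
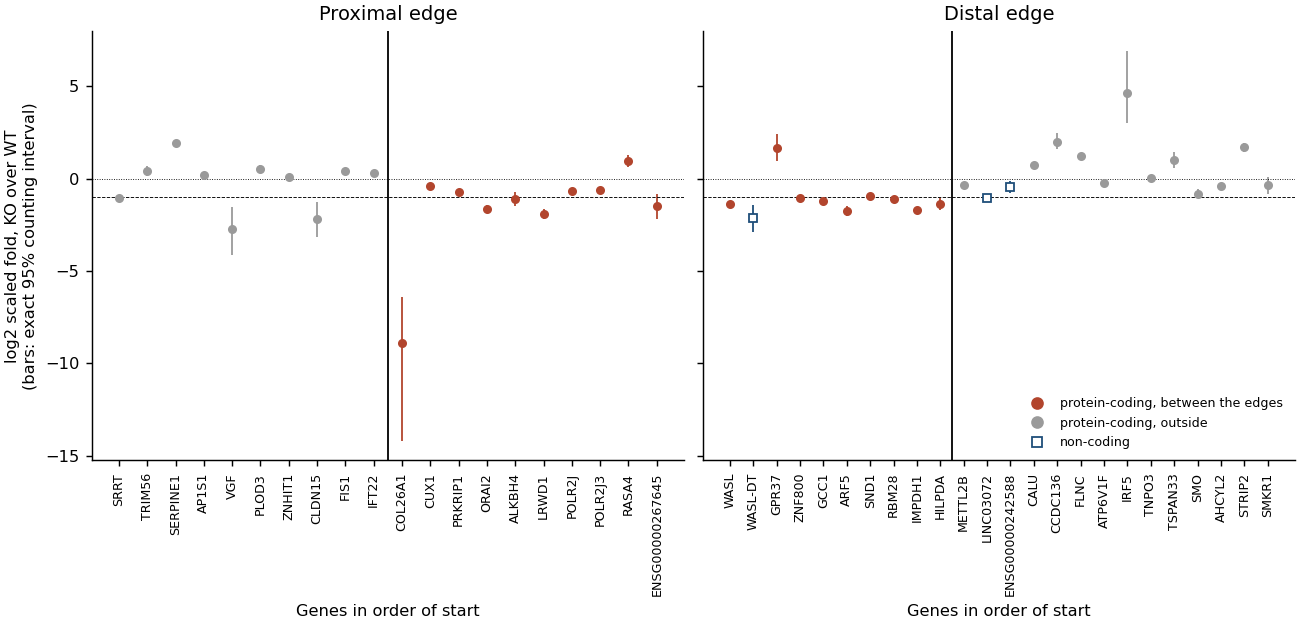
Log2 scaled fold, KO over WT, without a prior count (vertical axis), with exact 95% counting intervals as bars, for the genes around the proximal and the distal edge in order of start (horizontal axis). Red points are protein-coding genes between the edges, grey points those outside, open squares non-coding genes, the vertical line is the edge, the dotted line marks 0 and the dashed line marks -1. COL26A1 sits far below all others on the proximal side, and on the distal side WASL to HILPDA lie near or below -1 except for GPR37.

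The 7 members past the distal edge did not share the lower level, with a median of 0.75. CALU, a calcium-binding protein of the endoplasmic reticulum and the member with the highest level per length in WT cells (84.1 RPKM, reads scaled to the length of the canonical transcript and to the library size), had 13799 reads in WT and 23828 in KO cells, 1.69-fold higher (1.65 to 1.72). FLNC, an actin cross-linking filamin, had 5023 and 11880 reads, 2.31-fold higher (2.23 to 2.39). TNPO3, a nuclear import receptor for splicing factors and the last member, had 4173 and 4338 reads, a ratio of 1.02 (0.973 to 1.06). None of the 7 was more than 1.5-fold lower, and 4 were more than 1.5-fold higher. The others were METTL2B, given with the edge, ATP6V1F, a subunit of the vacuolar proton pump, with 1479 and 1307 reads, and CCDC136 and IRF5, described further on.

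Within the stretch, the lower level was interrupted over a run of neighbouring genes. Over the 32 members before DOCK4 the median was -1.07, with 28 more than 1.5-fold lower and 2 higher. Over the 12 members from DOCK4 to CAV1 it was 0.15, with 3 lower and 5 higher. Over the 20 members from CAPZA2 to HILPDA it was -1.18, with 18 lower and 2 higher. The 12 genes were picked out after their values were seen, so these medians are a description. A running median of 11 genes stayed below -0.5 from IFT22 to DOCK4, over 39 genes, its longest such run, which ended at this interruption. It was below -0.5 again from CAV1 (-0.84) to HILPDA (-0.95) and was -0.35 at METTL2B. It ranged from -1.31 to 0.75 over the members, while the lowest running median of the chromosome, -2.60, was at HGF, outside the segment.

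DOCK4, an exchange factor for Rac, opened the interruption with 327 reads in WT and 544 in KO cells (1.62-fold higher, 1.41 to 1.87). ZNF277 and IFRD1, regulators of transcription, followed with 436 and 478 reads and with 2436 and 2878 reads. TMEM168 and BMT2, a sensor of S-adenosylmethionine in mTORC1 signalling, were lower, with 730 and 271 reads and with 472 and 200 reads. GPR85, an orphan receptor, had 659 and 479 reads, and SMIM30 had 968 and 709. The 12 genes were thus mixed, with neighbours of either sign. MDFIC, an inhibitor of MyoD family factors, had 273 and 659 reads (2.36-fold higher, 2.04 to 2.72).

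The largest fall and 2 of the 5 rises past 3-fold were close to each other. TFEC, a basic helix-loop-helix factor of the MiT family, had 272 reads in WT and 2 in KO cells, a ratio of 139 with a counting interval of 38.2 to 1156. The next member, TES, a focal adhesion protein, had 621 and 1222 reads (1.92-fold higher, 1.74 to 2.12). CAV2 had 938 and 4623 reads (4.81-fold higher, 4.49 to 5.17), and CAV1 had 2171 and 12169 reads (5.47-fold higher, 5.23 to 5.73). Beyond CAV1, CAPZA2, a subunit of the actin capping protein, was lower again with 6378 and 3324 reads (1.96-fold, 1.88 to 2.05). With 4 steps allowed over the members and 25 genes on either side, the fit set TES, CAV2 and CAV1 apart with a median of 2.26, between stretches of -1.02 and -1.18. Stretches in this fit needed at least 3 genes, so this one was as short as the fit allowed.

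The 250 bases upstream of the most upstream RefSeq start are shown for these 3 genes because they lie close together and differed in opposite directions (RefSeq, GRCh38.p14, 5′ to 3′ on the strand of the gene). Capitals mark each CG dinucleotide, which reads the same on both strands: 35 upstream of CAV2 (chr7:116499488-116499737, + strand), 18 upstream of CAV1 (chr7:116524759-116525008, + strand) and 1 upstream of TFEC (chr7:116030764-116031013, - strand). The annotation that gave the members' spans, on GRCh37, begins CAV2 and TFEC further upstream than these starts, and the sequence before those starts is not shown.
CAV2: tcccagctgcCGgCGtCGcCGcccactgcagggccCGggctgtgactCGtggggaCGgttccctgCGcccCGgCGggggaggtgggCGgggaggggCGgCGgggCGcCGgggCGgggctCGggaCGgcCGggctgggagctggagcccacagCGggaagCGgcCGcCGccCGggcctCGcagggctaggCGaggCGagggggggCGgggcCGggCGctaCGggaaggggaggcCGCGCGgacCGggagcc
CAV1: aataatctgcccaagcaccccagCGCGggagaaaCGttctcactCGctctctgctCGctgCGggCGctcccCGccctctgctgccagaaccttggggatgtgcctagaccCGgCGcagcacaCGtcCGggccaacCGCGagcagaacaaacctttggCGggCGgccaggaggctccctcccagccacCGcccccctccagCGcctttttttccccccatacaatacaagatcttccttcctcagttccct
TFEC: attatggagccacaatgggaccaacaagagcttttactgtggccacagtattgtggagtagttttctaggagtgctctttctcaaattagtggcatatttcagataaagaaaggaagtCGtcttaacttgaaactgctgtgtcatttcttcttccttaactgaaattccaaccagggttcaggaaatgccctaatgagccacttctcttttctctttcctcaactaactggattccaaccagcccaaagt

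Such upstream sequences were found for 62 of the 71 members, and the median number of CG dinucleotides was 22, beside 21 over the 10197 expressed protein-coding genes with one and 10 over all 27305 sequences of the table. Fewer than 5 CG dinucleotides were counted for 7 of the 62 members (11.3%), for 6.35% of the expressed protein-coding genes and for 35.0% of all. The median was 23 over the 30 members that were 1.5-fold to 3-fold lower and 19 over the 32 other members with a sequence. By the median the members resembled other expressed genes, whereas the share with fewer than 5 was higher among the members. That share rests on 7 genes, and neither comparison was tested. No factor's binding was measured here.

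The genes that act in transcription and chromatin numbered 16, with a median of -0.81, 11 more than 1.5-fold lower and 2 higher. LRWD1, a partner of the origin recognition complex, had 582 reads in WT and 157 in KO cells (3.80-fold lower, 3.18 to 4.56). ORC5, a core subunit of that complex, had 1370 and 443 reads (3.17-fold lower, 2.84 to 3.53). Both were lower than each of the 5 subunits encoded elsewhere, ORC1, ORC2, ORC3, ORC4 and ORC6, whose median was 0.13. THAP5, a zinc finger protein, had 1795 and 551 reads (3.34-fold lower, 3.03 to 3.68). ING3, a subunit of the NuA4 acetyltransferase complex, had 831 and 476 reads. HBP1, a repressor of cell cycle genes, had 671 and 551 reads, only 1.25-fold lower (1.11 to 1.40).

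POLR2J, a subunit of RNA polymerase II and the second member, had 1330 reads in WT and 842 in KO cells (1.62-fold lower, 1.48 to 1.77). Its log2 fold change of -0.69 lay within the range of the 11 subunits encoded elsewhere, from -0.87 for POLR2D to 0.53 for POLR2K, with 2 of them lower than POLR2J. POLR2J3, the third member, had 512 and 336 reads, and POLR2J2 had 60 and 35. These copies are nearly identical to POLR2J, and how the authors' counting divided reads among them is uncertain. Leaving out that duplicated block left both edges in place. The same caution holds for RASA4, a Ras regulator with near-identical copies, which had 109 and 216 reads.

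The RNA processing and modification genes were the most uniform of the role groups. All 9 were below 0, with a median of -1.15, and 8 were more than 1.5-fold lower. The list counts BMT2 among the 9, although it is described above as a sensor of S-adenosylmethionine. SRPK2, a kinase of splicing factors, had 2535 reads in WT and 807 in KO cells (3.22-fold lower, 2.97 to 3.49). PUS7, a pseudouridine synthase, had 3042 and 1326 reads, and CBLL1, a component of the m6A writer complex, had 1068 and 493. Counts of both were thus lower by more than 2-fold. SND1, a Tudor domain nuclease, had 5591 and 2956 reads, and RBM28, a nucleolar factor in ribosome assembly, had 3262 and 1525. LSM8, the subunit that defines the nuclear LSM ring on U6 RNA, had 1851 and 894 reads. Its log2 fold change of -1.08 was below those of the 6 other ring subunits, which ran from -0.59 to 0.39.

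Of the 7 mitochondrial proteins, 6 were more than 1.5-fold lower and 1 was higher, with a median of -1.04. PMPCB, the catalytic subunit of the peptidase that removes import signals, had 3424 reads in WT and 1463 in KO cells (2.40-fold lower, 2.25 to 2.55). Its partner PMPCA, encoded elsewhere, had 2869 and 2927 reads. These read counts do not show a matched pair in WT cells, because the transcripts differ in length. Scaled to length, PMPCB had 28.1 RPKM in WT cells and PMPCA had 44.2. The gap was wider in KO cells, where PMPCB had 11.7 RPKM, whereas the log2 fold change of PMPCA was -0.005. NDUFA5, a subunit of respiratory complex I, had 3672 and 1830 reads, and its log2 fold change of -1.04 was below those of 11 other NDUFA subunits, with a median of -0.10. DLD, the dehydrogenase shared by the 2-oxoacid dehydrogenase complexes, had 4507 and 2714 reads. At -0.77 it was just below BCKDHA at -0.75, the lowest of its 9 partners.

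PNPLA8, a phospholipase, was the mitochondrial exception, with 356 reads in WT and 706 in KO cells (1.94-fold higher, 1.70 to 2.21). Its gene overlaps THAP5 on the same strand, and THAP5 was lower. How reads of the shared part were divided between them is uncertain. Other overlapping neighbours, LRWD1 with POLR2J, PMPCB with DNAJC2 and PSMC2, COG5 with HBP1 and DUS4L, and GCC1 with ARF5, were all below 0. Whether strand was used in the counting is not given in the sources used here.

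The secretory pathway, vesicle and proteostasis genes numbered 13, with a median of -0.70, 8 lower and 2 higher by more than 1.5-fold. FAM3C, a secreted factor, had 1715 reads in WT and 411 in KO cells (4.27-fold lower, 3.83 to 4.77), and ARF5, a small GTPase of the Golgi, had 553 and 168 (3.37-fold lower, 2.83 to 4.03). Both were past 3-fold. RINT1, a subunit of the NRZ tether for vesicles from the Golgi, had 657 and 326 reads, against 3011 and 4356 for its partner ZW10 and 2861 and 2675 for NBAS. PSMC2, an ATPase of the proteasome base, had 5070 and 3200 reads, and its log2 fold change of -0.70 was just below that of the lowest of 5 partners, PSMC4 at -0.67. COG5, of the Golgi tethering complex COG, was at -0.65, and 2 of its 7 partners were lower. CADPS2, which primes dense-core vesicles for release, went the other way with 32 and 189 reads (5.77-fold higher, 3.95 to 8.67).

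**Figure D4:**
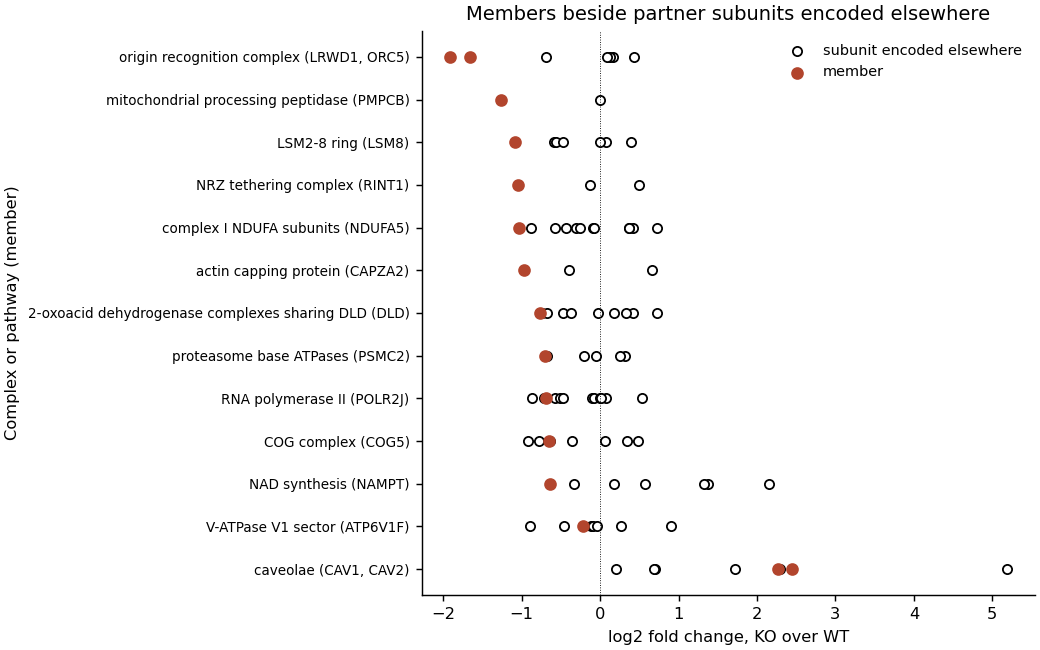
Log2 fold change, KO over WT (horizontal axis), of members (filled red points) and of the partner subunits encoded outside the segment (open points) for each listed complex or pathway (vertical axis, members named in brackets), for genes with at least 50 reads. The member lies at or left of all partners in the origin recognition complex, the peptidase, the LSM ring, the NRZ tether, complex I, the capping protein, the dehydrogenases, the proteasome base and NAD synthesis, and all points of caveolae lie to the right of 0.

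Across the 13 listed complexes and pathways, the 15 members had a median of -0.77, with 12 lower and 2 higher by more than 1.5-fold. The 78 partners encoded elsewhere had a median of -0.01, with 12 lower and 12 higher, or 15.4% each way. Over all expressed protein-coding genes, 23.2% were lower and 27.4% higher, so the partners differed less often than expressed genes in general. The lists were drawn up with the members' direction known, so this is a description.

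The metabolic genes were all lower. NAMPT, the rate-limiting enzyme of the NAD salvage pathway, had 3080 reads in WT and 2032 in KO cells (1.55-fold lower, 1.47 to 1.64). NAPRT, which makes NAD from nicotinic acid and is encoded elsewhere, had 129 and 596 reads and was higher. NAPEPLD, a phospholipase that makes N-acylethanolamines, had 240 and 143 reads, and IMPDH1 and HILPDA are given with the distal edge. The 4 genes had a median of -1.06.

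The actin and caveolae genes were the only one of the 7 role groups with a median above 0, at 0.94, with 5 higher and 2 lower. DOCK4, TES, CAV2, CAV1 and FLNC made up the 5. The other genes of caveolae on the list were higher too. CAVIN2 had 163 reads in WT and 6132 in KO cells (36.7-fold higher, 31.4 to 43.2), and CAVIN1 had 7919 and 13182. CAVIN3 had 23 and 123 reads, EHD2 had 125 and 427, and CAVIN4 had 37 and 62. With PACSIN2 at 2675 and 3160 reads, 5 of the 6 expressed partners of CAV1 and CAV2 were more than 1.5-fold higher, where the share of all genes was 27.4%. The list is short and was drawn up with the direction of CAV1 and CAV2 known, so this count is a description.

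CAPZA2 and WASL, both regulators of actin assembly, were lower. WASL, an activator of the Arp2/3 complex, had 1633 reads in WT and 654 in KO cells (2.56-fold lower, 2.33 to 2.80). CAPZA1, the gene for the alternative alpha subunit of the capping protein, had 12915 and 20949 reads, and CAPZB had 3108 and 2421. CAPZA1 and CAPZA2 therefore differed in opposite directions.

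The 5 receptor, adhesion and secreted factor genes spread widely around a median of -1.25. CPED1, a gene with a cadherin-like domain, had 4836 reads in WT and 114 in KO cells (43.4-fold lower, 36.1 to 52.8). It went from 29.3 to 0.674 RPKM, and no other member with over 2000 reads was lower by as much. TSPAN12, a tetraspanin that takes part in Norrin signalling, had 731 and 313 reads. CDHR3, a cadherin-related protein, had 65 and 20. GPR37, an orphan receptor, had 23 and 74 reads (3.14-fold higher, 1.95 to 5.26).

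Among the 10 members placed in no role group, 7 were lower and 2 higher by more than 1.5-fold, with a median of -1.43. FAM185A had 512 reads in WT and 80 in KO cells (6.55-fold lower, 5.17 to 8.40), IQUB had 70 and 2 (a ratio of 35.8, 9.56 to 302), and FBXL13 had 44 and 10 (4.51-fold lower, 2.23 to 10.0). CCDC136, past the distal edge, had 57 and 234 reads (4.01-fold higher, 2.99 to 5.45). Among all members, the largest rise by log2 fold change was that of IRF5, an interferon regulatory factor of the transcription group, also past the edge, with 3 and 75 reads (a ratio of 24.4, 8.04 to 121). IQUB, FBXL13 and IRF5 have at most 10 reads in 1 of the libraries, and their intervals are wide.

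**Figure D5:**
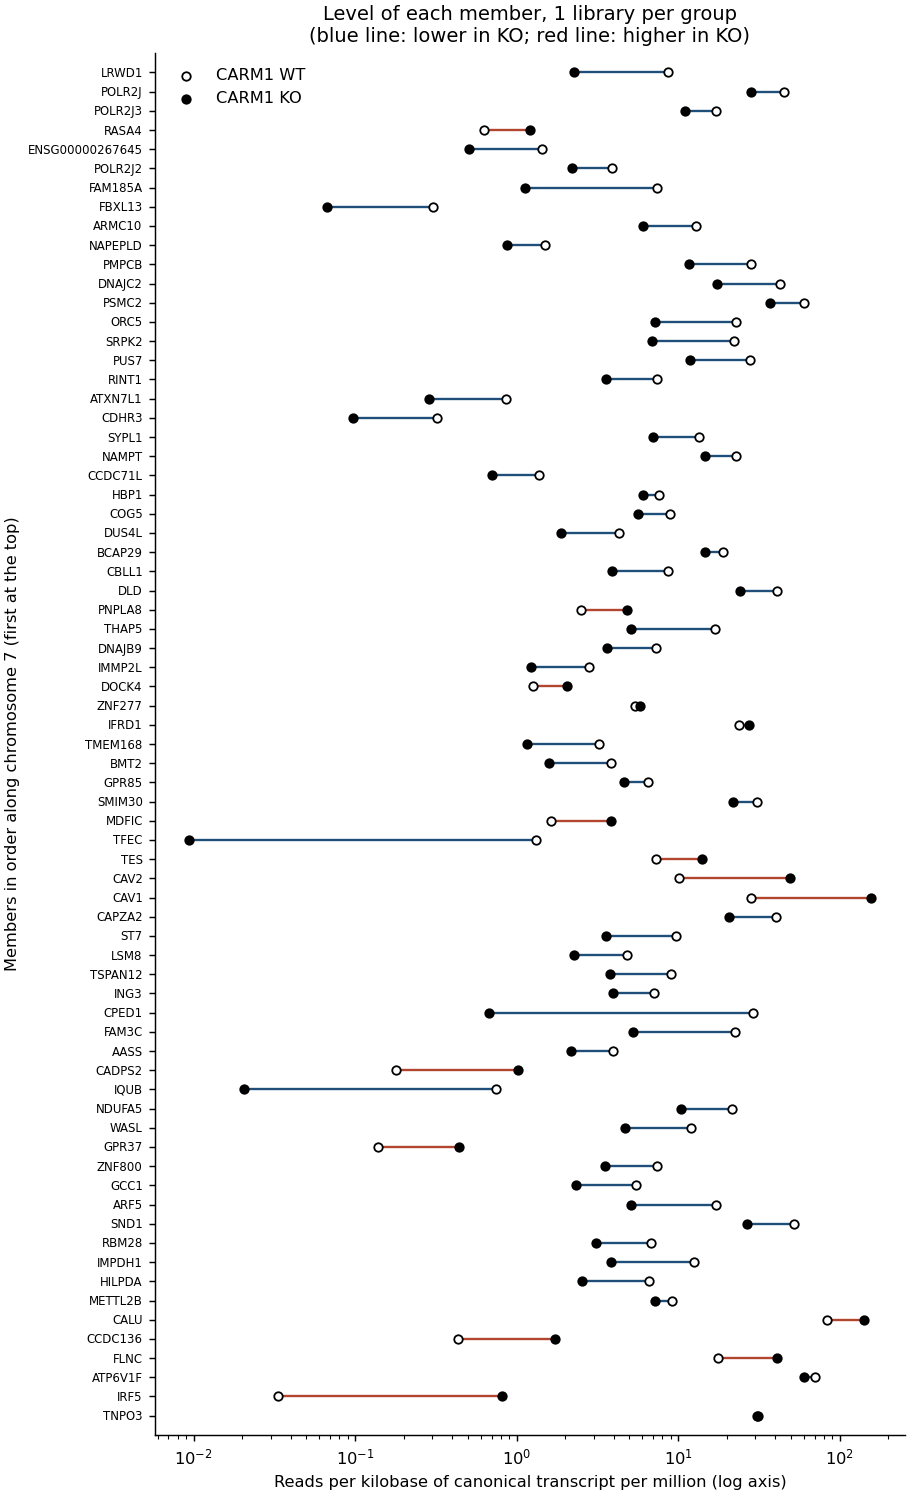
Level of each of the 71 members in RPKM (horizontal log axis) in CARM1 WT (open) and CARM1 KO (filled) cells, 1 library each, in order along chromosome 7 from top to bottom. Blue lines join members that were lower in KO cells and red lines those that were higher. The lines are blue for most of the plot, red from TES to CAV1, and mixed over the last 7.

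The 10 members with the highest level per length in WT cells were CALU, ATP6V1F, PSMC2, SND1, POLR2J, DNAJC2, DLD, CAPZA2, TNPO3 and SMIM30, from 84.1 down to 30.7 RPKM. DNAJC2, a chaperone bound to ribosomes, had 3071 reads in WT and 1264 in KO cells. In KO cells the highest was CAV1, which went from 28.4 to 155 RPKM. CALU followed with 142, and PSMC2 went from 60.0 to 37.0. Of those 10, 6 were more than 1.5-fold lower, CALU was higher, and ATP6V1F, TNPO3 and SMIM30 differed by less.

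Just inside the minimum of 50 reads lay FBXL13 with 54 reads in both libraries together, IQUB with 72 and IRF5 with 78. Just outside it lay RELN with 49, NRCAM with 38 and KCP with 33. RELN, an extracellular matrix protein that guides neurons, had 7 reads in WT and 42 in KO cells. NRCAM, a neuronal adhesion molecule, had 3 and 35. Both were higher in KO cells, against the direction of most members, whereas KCP had 20 and 13 reads. Of the 44 genes under the minimum, 12 had 0 reads in both libraries.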

How the data were processed

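RNA was sequenced from 1 CARM1 WT and 1 CARM1 KO library of A1847 cells (ScriptSeq Complete Gold kit, paired-end). The authors aligned reads to hg19 with bowtie2 and estimated counts per Ensembl gene with RSEM (1.2.3 in the submitters' processing notes), and deposited these expected counts unnormalized, as whole numbers. Where genes share sequence, RSEM splits reads between them. The Ensembl release is not given in the sources used here.

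Identifiers were matched to the GENCODE annotation on GRCh37 (55501 of 57736). Counts were scaled by TMM in edgeR 4.0.16 (R 4.3.3), with factors of 1.013 and 0.987. Log2 fold changes used a prior count of 2, and folds have exact 95% binomial intervals (scipy 1.17.1) for counting error only. With 1 library per group, a quasi-likelihood fit has no residual spread to use, and no main value has a test. Edges were found by a step fit of absolute deviations with at least 10 genes a stretch, and by running medians. The fits over the members and 25 genes on either side allowed stretches of 3 genes. Both steps were tested on simulated data. The simulated counts for the folds held counting error only, so they do not cover differences between libraries. Levels per length used the canonical transcript.

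The members and lists were chosen with earlier results of these data known. Named are the members in the role and complex lists with their partners, the 10 largest rises and falls, the 10 highest levels, the first and last 3 members, 3 genes on each side of each edge, and CARM1; other names were chosen after values were seen. Alternatives were other scalings, read minimums, prior counts, windows and step fits, DESeq2 1.42.0 size factors, and edgeR's exact test with a set coefficient of variation. The values of 1 gene are not reported here.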

Additional observations from a re-analysis of the deposited data

How the results depend on the processing

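Of the values recomputed under the alternatives, 64 stayed close to the main ones, 21 moved and none changed direction. The median of -0.97 became -0.90 with a minimum of 10 reads, -0.69 with a minimum of 1 read and -1.08 over the 69 genes between the edges, the last chosen after seeing the data. Members more than 3-fold higher, 5 of 71 in the report, numbered 8 of 82 with 10 reads and 10 of 103 with 1 read. Between the edges, 3 of the 69 genes were more than 3-fold higher. Members more than 1.5-fold higher, 13 of 71 in the report, numbered 27 of 103 with 1 read. These sets differ in size, and the share of all genes at those minimums is not given. With edgeR's exact test added, the counts past 3-fold in both directions stayed the same at a set coefficient of variation of 0.12 and fell at 0.4. With 1 library per group that coefficient cannot be estimated, so the calls rest on the value set. The distal edge moved from 128098472 to 128146656, past METTL2B, with a minimum of 1 read and with 4 steps of squared deviations. Over the members and 25 genes on either side, it moved there with 3, 5 and 6 steps but not with 2 or 4. With 1 step over those genes there was no proximal edge, and the low stretch ended at HILPDA. The fit with 4 steps of squared deviations began at 100805790. With 2 steps of squared deviations the stretch was another one, from 77646372 to 84816372, with 10 genes and a median of -2.95. With genes of any biotype it ran from 100875373 to 128303533, and without COL26A1 it began at 102004319. The fits over the members and 25 genes on either side, with 4 steps of squared deviations and without COL26A1 were added after seeing the data. In its longest run, the running median of 11 genes stayed below -0.5 from 100954195 to 111846462, that of 7 genes from 101006156 to 108215294, and that of 21 genes to 111202573. Shorter runs are not in these spans, and the running median of 11 genes was below -0.5 again from CAV1 to HILPDA. The scalings left both edges in place. No paired analysis was possible because each group has only 1 library, and for that reason none could be left out. Depth limits the members with few reads, such as TFEC and IQUB with 2 reads in KO cells and IRF5 with 3 in WT cells.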

Other observations

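The non-coding genes of the segment did not share one direction. Of the 8 with at least 50 reads, WASL-DT, the divergent transcript of WASL, had 89 reads in WT and 21 in KO cells (4.34-fold lower, 2.67 to 7.35), in the direction of WASL itself. LINC03072 and ENSG00000242588, which lie between METTL2B and CALU, were the only 2 others that were lower, the second with 211 and 158 reads. The other 5 were higher. FEZF1-AS1 had 6 and 57 reads (9.28-fold higher, 4.01 to 26.3), LINC02577 had 14 and 78, and DPY19L2P2, a transcribed pseudogene, had 144 and 268. ENSG00000237870, which lies between TES and CAV2, had 9 and 50 reads, in the direction of its neighbours. Where such a gene overlaps or adjoins another, reads of the pair cannot be divided without strand.

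Protein-coding genes of the segment with 10 to 49 reads numbered 11. LRRN3, a neuronal leucine-rich repeat protein that lies within the span of IMMP2L, had 24 and 3 reads, and LRRC17 had 12 and 0. ANKRD7 had 1 and 12 reads. At these counts the intervals are wide, and for GARIN1A, with 13 and 16 reads past METTL2B, the interval of the ratio runs from 0.542 to 2.72.

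The longest run of consecutive members with a log2 fold change below 0 had 24 genes, from ENSG00000267645 to DLD, with values between -2.68 and -0.32. Runs of similar length were found elsewhere when all expressed protein-coding genes were taken in order of start. The longest was 27 genes on chromosome 19, 21 on chromosomes 1 and 16, and 20 on chromosome 17. The run of members had a median of -1.12. The run on chromosome 16, from WDR59 to CMIP, had a median of -1.06 and that on chromosome 1, from THBS3 to MEX3A, -0.67. Shorter runs on chromosomes 13 (17 genes), 10 (16 genes) and 2 (16 genes) had lower medians than the members' run, at -1.22, -1.40 and -1.45.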
